A study of Danio rerio with 24 samples.

Results

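The change between 36 hours post fertilization (hpf) and 3 days post fertilization (dpf) was examined in zebrafish cells sorted and labelled as endothelial cells (EC). It was chosen by stage and label alone: the 2 EC libraries of 3 dpf were compared with the 2 EC libraries of 36 hpf, 4 of the 24 libraries of the series. All 25067 genes of the table entered, and the 18695 genes with at least 1 FPKM (fragments scaled to gene length and to the library total) in at least 2 of the 12 libraries fitted were tested. The other 8 of these 12 libraries are 2 per stage labelled as hematopoietic stem and progenitor cells (HSPC) and 2 per stage labelled double negative (DN).

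Every group came from fish carrying a kdrl:mCherry reporter, driven in endothelium, together with a CD41:GFP reporter, driven in HSPCs and thrombocytes. The series design names embryonic tails as the source at each embryonic stage. Sample titles name the caudal hematopoietic tissue (CHT) at 3 dpf but not at 36 hpf, so a difference in dissection and a difference in stage cannot be told apart. Replicates carry a number only, and no label ties them to clutches or to sorts. The spread that enters the p-values is that among these libraries and could be technical.

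The CHT is a plexus of veins in the tail in which blood stem cells lodge after leaving the aorta, and in which they multiply before moving to the kidney and thymus. Endothelial cells line these vessels and are recognised by receptors for vascular growth factors, junction proteins such as VE-cadherin, and SoxF and ETS transcription factors. The blood of this stage holds primitive red cells with embryonic globins, early neutrophils and macrophages, and the progeny of the first stem cells.

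Reads recovered from the FPKM values numbered 13842524 and 14893384 in the 36 hpf EC libraries and 10234298 and 13155373 in the 3 dpf EC libraries. Genes above 0 numbered 21322 and 21387 at 36 hpf and 18954 and 21136 at 3 dpf. The Spearman correlation between replicates across genes was 0.972 at 36 hpf and 0.927 at 3 dpf. The mitochondrial genome took 11.1% and 10.19% of FPKM at 36 hpf and 4.23% and 7.27% at 3 dpf. Replicate 1 of 3 dpf thus stood lowest of the EC libraries compared in reads, genes detected and mitochondrial share. HSPC libraries of 3 dpf had fewer reads, 9840488 and 9401773, and fewer genes above 0, 13459 and 13274, with a replicate correlation of 0.872. The part of this in values of 0 in HSPC was not tested.

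The genes behind the reporters went against the EC label at 3 dpf. kdrl, a receptor for vascular endothelial growth factor, was at 5.16 and 3.68 FPKM at 36 hpf and at 0.333 and 0.323 FPKM at 3 dpf, which are 420 and 322 reads against 20 and 25. The CD41 gene itga2b was listed at 0 in each library of 36 hpf and was at 6.55 and 5.72 FPKM at 3 dpf, from 252 and 283 reads. HSPC libraries of 3 dpf held itga2b at 6.54 and 7.98 FPKM and kdrl at 0 in both. At 36 hpf the HSPC libraries themselves held itga2b at only 0.4275 and 0 FPKM. Its rise was thus not particular to the EC label, with an EC change minus HSPC change of 0.05 ± 0.37 (limma, adjusted p = 0.95). The 3 dpf samples are therefore called libraries labelled EC throughout, and every direction below is a difference between labels. Across the 18695 genes the mean log values of the 3 dpf libraries labelled EC had a Spearman correlation of 0.876 with HSPC of 3 dpf, 0.578 with DN of 3 dpf and 0.722 with EC of 36 hpf. At 36 hpf the libraries labelled EC had a correlation of 0.893 with HSPC and 0.837 with DN. A high correlation with HSPC was thus not particular to 3 dpf. These correlations are across genes, which are not replicates. In such sorted bulk samples, fewer cells of a type and less RNA per cell cannot be told apart.

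**Figure D1:**
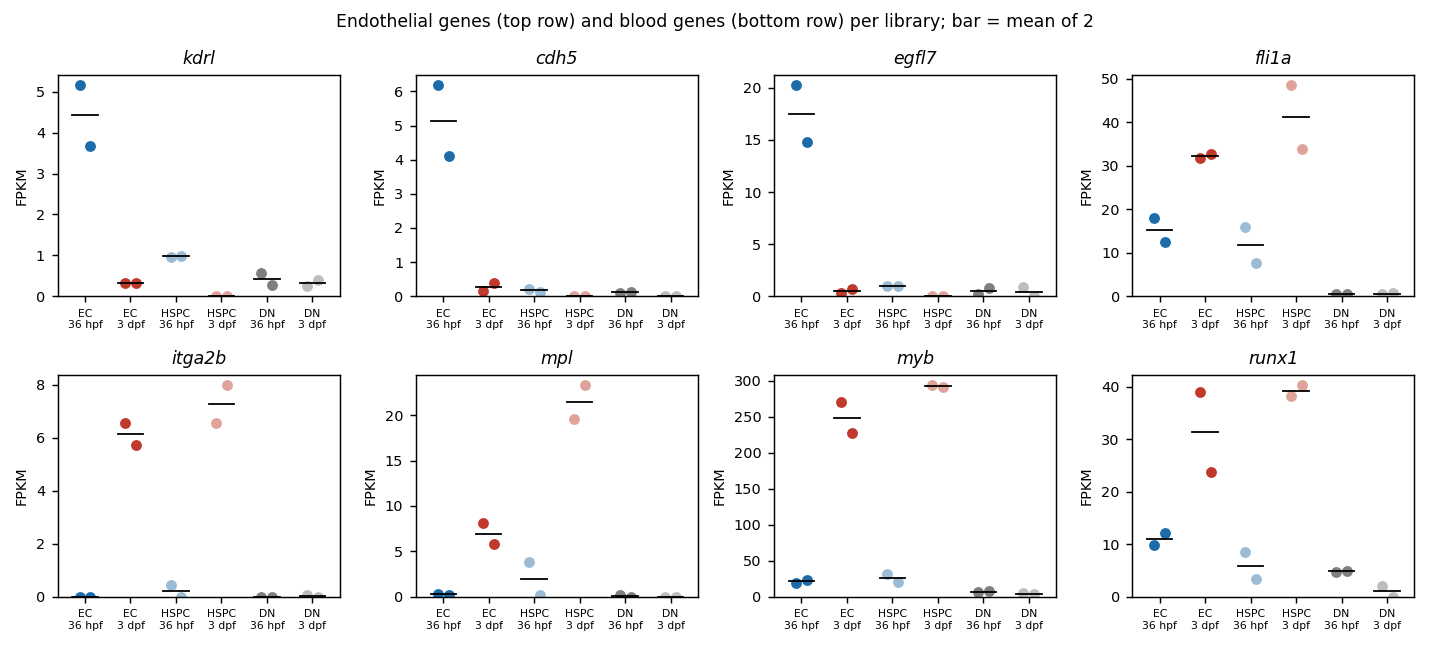
FPKM (vertical axis) of 4 endothelial genes in the top row and 4 blood genes in the bottom row, in the 2 libraries of each sort and stage; points are libraries and bars are means of 2. kdrl, cdh5 and egfl7 are highest in the 36 hpf libraries labelled EC among the 6 groups, while itga2b, mpl, myb and runx1 are high in the 3 dpf libraries labelled EC and HSPC.

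Changes are given as 3 dpf minus 36 hpf in log2(FPKM + 1), which understates those of low genes, with ± the standard error from limma and n = 2 per group. Values per library have replicate 1 first. A gene was called at an adjusted p under 0.05 and a change of at least 1 on the log2 scale in size. Of the 18695 genes, 1712 were called higher at 3 dpf (9.16%) and 4416 lower (23.6%), together 6128 (32.8%). The libraries of the 2 stages did not overlap in 13405 genes, 71.7% of those fitted, which include all 6128. The median change was 1.5 among the genes called higher, -1.83 among those called lower and -0.17 over all genes. A fitted change of at least 4 in size, on the log2(FPKM + 1) scale, was reached by 9 genes called higher and 158 called lower. Among the called genes, 124 were at 0 in both 3 dpf libraries and 18 at 0 in both 36 hpf libraries. Fitting all 24 libraries, which include 4 dpf pairs that replicate poorly, called 183 genes higher and 2452 lower, 2635 in all, of which 2628 were among the 6128.

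Receptors and signalling genes of blood and immune cells were among the 12 called genes that rose most. ccr9a, a chemokine receptor of lymphoid cells, was at 4.05 and 17.7 FPKM at 36 hpf and 329 and 326 at 3 dpf, a change of 5.08 ± 0.50 (adjusted p = 4.1e-05). hdac7b, a histone deacetylase of class IIa, rose from 0.810 and 0.564 FPKM to 42.2 and 67.5, by 5.01 ± 0.32. GZMM, a granzyme of cytotoxic lymphocytes, rose from 0.0651 and 0.0233 FPKM to 19.4 and 41.1, by 4.81 ± 0.34. The rule that chose these 12 genes required that the libraries of the 2 stages did not overlap. All 3 also rose in HSPC libraries. There ccr9a went from 6.27 and 4.085 FPKM to 299 and 303, and hdac7b from 0.701 and 0.204 to 83.2 and 62.9. GZMM went from 0.129 and 0 FPKM to 32.25 and 27.0 in HSPC. The EC change minus the HSPC change was called for none of them.

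gata1b, a paralog of the erythroid factor gata1a, rose by 4.1 ± 0.34. il2rga, the common gamma chain of interleukin receptors, was at 1.72 and 1.66 FPKM and then at 39.3 and 31.2, a rise of 3.74 ± 0.30. The nuclear receptor gene nr1d1, a repressor in the circadian clock, rose from 7.63 and 12.4 FPKM to 112 and 164. The other genes of this group were rgs13, a regulator of G protein signalling, sla2, an adaptor of lymphocyte receptors, the galectin gene lgals2b, the lysophosphatidic acid receptor gene lpar5a and the chemokine gene cxcl19, with changes between 3.62 ± 0.54 and 4.02 ± 0.60. Of these, lgals2b also rose in DN libraries, from 1.49 and 1.39 FPKM to 211 and 83.2, above its 7.24 and 26.5 FPKM in the 3 dpf libraries labelled EC. tnfrsf9b, of the tumour necrosis factor receptor family, was listed at 0 in both 36 hpf libraries and at 9.31 and 21.5 FPKM at 3 dpf (adjusted p = 2.2e-05). The EC change minus the HSPC change was called higher for lgals2b. It was not called for gata1b, il2rga, nr1d1, rgs13, sla2, lpar5a, cxcl19 or tnfrsf9b.

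The 12 called genes that fell most included genes of the hatching gland, an embryonic globin and genes of the nervous system. he1a, a hatching enzyme that digests the egg envelope, was at 1859 and 1361 FPKM at 36 hpf and at 0 and 0.216 FPKM at 3 dpf, a change of -10.5 ± 0.49 (adjusted p = 1.2e-06). hbbe3, an embryonic beta globin, was at 4724 and 2738 FPKM and then at 0.931 and 7.96, a change of -9.76 ± 0.56. The neuronal factor gene neurod4 fell from 68.5 and 58.3 FPKM to 0 and 0.155, and dlb, a Delta ligand of Notch, fell from 226 and 179 FPKM to 1.04 and 4.84. That the libraries of the 2 stages did not overlap was again required by the rule that chose these genes. The EC change minus the HSPC change was called lower for he1a and neurod4 but not for hbbe3 and dlb.

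Among the same extremes, slc2a1a, a glucose transporter gene, fell from 105 and 137 FPKM to 0 and 0.0424, and slc5a9, of a family of sodium and sugar transporters, fell by 5.84 on the log2 scale. gadd45gb.1 and GADD45G, of the stress and growth arrest family, fell by 6.87 and 6.19. The channel gene aqp8b was at 219 and 314 FPKM and mfsd4ab at 80.7 and 123 FPKM at 36 hpf, and both were listed at 0 in both 3 dpf libraries. In HSPC libraries aqp8b likewise fell, from 230 and 226 FPKM to 0 in both, and slc2a1a, mfsd4ab and slc5a9 fell there too. The EC change minus the HSPC change was not called for these genes, while it was called lower for gadd45gb.1 and GADD45G. he1b and ctslb are described with the hatching gland.

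**Figure D2:**
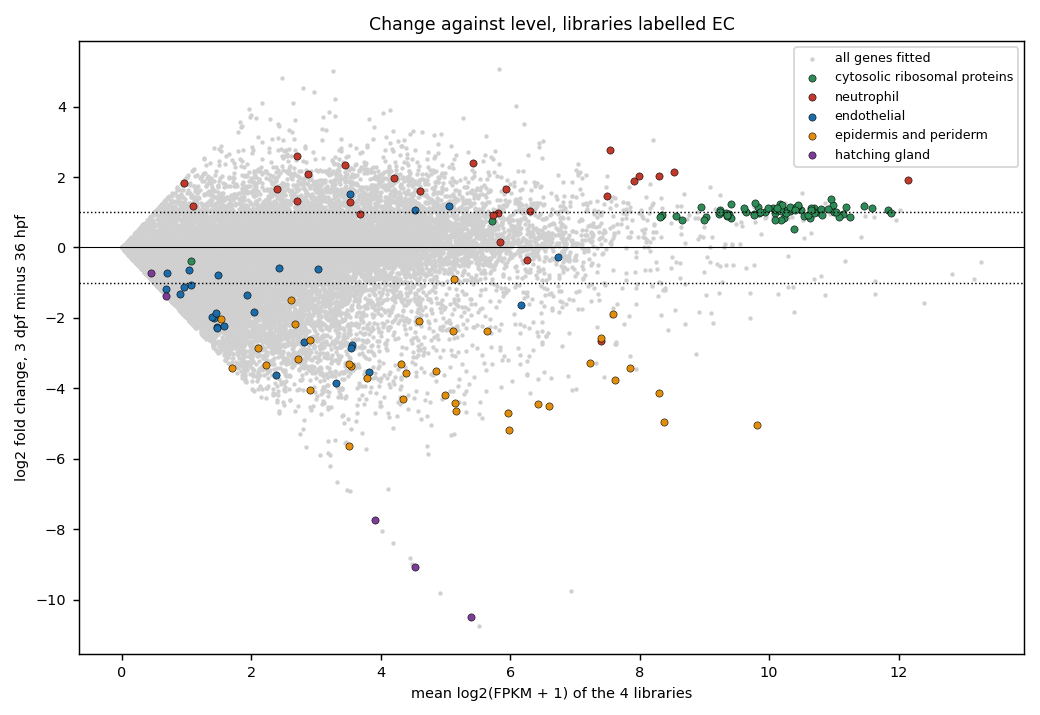
Log2 fold change from 36 hpf to 3 dpf (vertical axis) against the mean log2(FPKM + 1) of the 4 libraries labelled EC (horizontal axis) for the 18695 genes, with 5 gene lists in colour and dotted lines at a change of 1 in either direction. Ribosomal protein genes lie close together near a change of 1, neutrophil genes lie mostly above 0, and epidermal and hatching gland genes lie below it.

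Endothelial genes as a group were lower at 3 dpf. Of 28 fitted members of the endothelial list, 19 fell and 3 rose, with a median change of -1.49, against 23.6% and 9.16% of all genes. egfl7, a secreted protein of endothelium, was at 20.3 and 14.8 FPKM and then at 0.286 and 0.722, a change of -3.62 ± 0.36. cdh5, which encodes VE-cadherin, was at 6.19 and 4.098 FPKM and then at 0.157 and 0.378, a change of -2.26 ± 0.24 (adjusted p = 6.6e-05). The drop of kdrl, given above, was 2.02 ± 0.24 in size, and without either 36 hpf library neither kdrl nor cdh5 passed the filter on low values. pecam1, a junction protein, fell from 10.9 and 4.04 FPKM to 1.52 and 0.865.

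Among transcription factors and receptors of vessels, sox18 and sox7, of the SoxF family, changed by -3.84 ± 0.48 and -2.78 ± 0.38. s1pr1, a sphingosine phosphate receptor, was at 52.1 and 42.2 FPKM and then at 3.91 and 2.46. The tight junction gene cldn5b fell from 35.7 and 25.8 FPKM to 4.33 and 2.49. flt1, a second receptor for vascular growth factor, fell by 1.07 ± 0.28, a call that was lost without replicate 1 of 36 hpf and without replicate 2 of 3 dpf. tie1, an angiopoietin co-receptor, was at 3.59 and 1.92 FPKM and then at 1.66 and 0.717, which was not called (adjusted p = 0.062). Some of these falls were not particular to the EC label. In DN libraries s1pr1 went from 106.2 and 95.9 FPKM to 10.45 and 9.36. There sox7 went from 24.3 and 29.3 FPKM to 1.003 and 4.47, and cldn5b from 16.4 and 19.05 to 0.916 and 0.115. The EC change minus the DN change was not called for s1pr1, sox7, cldn5b, sox18 or tie1. It was called lower for kdrl, cdh5, egfl7, pecam1 and flt1.

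The 3 members that rose are shared with blood cells. They are 10.7% of the list, near the 9.16% of all genes. fli1a, an ETS factor of endothelium and blood, was at 17.9 and 12.6 FPKM at 36 hpf and 31.7 and 32.7 at 3 dpf, a rise of 1.05. fli1b rose by 1.51, and lmo2, a cofactor in early blood and endothelial cells, by 1.19. The summed level of the endothelial list, which includes these 3 genes, was 600 and 478 FPKM at 36 hpf and 268 and 272 at 3 dpf. Leaving out replicate 1 of 36 hpf gave 9 members called lower and leaving out replicate 2 gave 1 called higher, and the fit of all 24 libraries called 13 lower and none higher.

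In the lists of arteries, veins and vascular growth factors no fitted member was called higher. Of 19 arterial and Notch genes 12 fell, with a median of -2.23, and of 13 venous, lymphatic and scavenger genes 9 fell, with a median of -1.96. The Delta ligand genes dld and dlc changed by -5.15 ± 0.29 and -4.07 ± 0.27, the Notch receptor gene notch3 by -4.44 ± 0.26, and the ligand gene jag1a by -3.43 ± 0.28. dld and dlc are also genes of the early nervous system, whose list fell as well, and that share was not tested. The summed arterial and Notch level was 655 and 591 FPKM at 36 hpf and 298 and 277 at 3 dpf. This sum fell in the other sorts as well. It went from 674.2 and 775.9 FPKM to 234.1 and 332.7 in DN, and from 553.1 and 453.4 to 109.3 and 105.7 in HSPC. The EC change minus the DN change was called lower for dld and dlc but not for notch3 or jag1a.

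Among venous genes, ephb4a, a receptor that marks veins, was at 19.03 and 16.3 FPKM and then at 1.37 and 1.91. stab2, a scavenger receptor of venous endothelium in the CHT, was at 22.7 and 16.3 FPKM and then at 2.49 and 2.66, a change of -2.51 ± 0.28. dab2, an adaptor of endocytosis, fell by 2.34 on the same scale. Of 9 VEGF ligand and neuropilin genes 4 fell, led by the co-receptor gene nrp1a, from 18.6 and 20.4 FPKM to 2.67 and 2.23. Only 2 of these 9 were called without replicate 1 of 3 dpf, and 1 in the fit of all 24 libraries.

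Regulators of blood stem and progenitor cells were mostly higher at 3 dpf: 12 of 20 fitted members rose and 3 fell, with a median change of 1.26. myb, a factor required for definitive blood, was at 19.2 and 23.1 FPKM at 36 hpf and 271 and 227 at 3 dpf, a rise of 3.50 ± 0.25 (adjusted p = 6.1e-06). tal1, a master regulator of blood, rose from 14.8 and 15.0 FPKM to 102 and 107. ptprc, which encodes the pan-leukocyte antigen CD45, was at 2.02 and 2.16 FPKM and then at 12.6 and 19.03, and runx3 rose by 2.51 ± 0.33. runx1, needed for the birth of stem cells from endothelium, was at 9.75 and 12.03 FPKM and then at 38.9 and 23.7 (1.41 ± 0.50, adjusted p = 0.044), a call that was lost in 11 of 13 alternatives, among them each of the 4 fits that left out an EC library. meis1a, a homeobox cofactor, moved the other way, from 24.3 and 22.4 FPKM to 0.852 and 1.99. The fit of all 24 libraries called 3 of the 20 higher.

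Thrombocyte genes rose in 10 of 15 fitted members and fell in 2, with a median of 1.80. mpl, the thrombopoietin receptor, was at 0.306 and 0.199 FPKM and then at 8.12 and 5.77, and fermt3b, which activates integrins in platelets, was at 5.75 and 6.65 and then at 63.0 and 69.2. gp9, a subunit of the platelet adhesion complex, was at 1.94 and 3.82 FPKM and then at 2.41 and 3.67 (adjusted p = 0.90), while gp1bb, of the same complex, rose by 2.17 ± 0.51. itgb3a, an integrin chain, and thbs1b, a thrombospondin, were the members called lower. The calls higher numbered 6 without replicate 1 of 3 dpf and 6 with a pseudocount of 0.1, and 4 in the fit of all 24 libraries.

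Neutrophil genes rose in 19 of 26 fitted members and fell in 1, with a median of 1.66. lyz, lysozyme, the most abundant of them, was at 1813 and 2982 FPKM at 36 hpf and at 9112 and 8522 FPKM at 3 dpf, a rise of 1.92 ± 0.27 (adjusted p = 3.0e-04). mpx, myeloperoxidase, rose from 87.0 and 135 FPKM to 262 and 339, and npsn, a neutrophil protease, from 142 and 168 FPKM to 531 and 773. csf3r, the receptor for granulocyte colony stimulating factor, was at 3.00 and 4.86 FPKM and then at 30.1 and 18.5. Both stages thus held neutrophil transcripts. The libraries of the 2 stages did not overlap in these 4 genes, as in all 6128 called genes and 71.7% of those fitted.

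The matrix metalloproteinase genes mmp13a and mmp9 were among the members that rose, from 54.7 and 91.2 FPKM to 660 and 353 and from 148 and 208 FPKM to 964 and 632. Both calls were lost without replicate 1 of 36 hpf and without replicate 1 of 3 dpf, and that of mmp9 also without replicate 2 of 36 hpf. cfl1l, a cofilin gene, fell from 374 and 480 FPKM to 74.0 and 60.1. The epidermal list fell as well, and any share of it in the fall of cfl1l was not tested. The summed level of the neutrophil list was 3154 and 4782 FPKM at 36 hpf and 13610 and 12355 at 3 dpf, 3.27-fold higher in the mean. HSPC libraries held 2086.6 and 1787.5 FPKM at 36 hpf and 4901 and 4654 at 3 dpf, so the sum rose there too. DN libraries held 642.7 and 755.7 FPKM and then 296 and 449. The EC change minus the HSPC change was called higher for 4 of the 26 members, against 5.66% of all genes. It was not called for lyz, mpx, npsn or csf3r. The members called higher numbered 11 without replicate 1 of 36 hpf, 12 without replicate 1 of 3 dpf and 1 in the fit of all 24 libraries. Of 18 matrix proteases and inhibitors 2 rose and 8 fell, 11.1% and 44.4%, against 9.16% and 23.6% of all genes. The share that rose lies near that of all genes. Its members are the shared mmp9 and mmp13a, whose lost calls are given above.

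Macrophage genes rose in 9 of 20 fitted members and none was called lower, with a median of 1.29. ctss2.1, a cathepsin, was at 25.1 and 39.4 FPKM and then at 243 and 224, a rise of 2.85 ± 0.66 that was not called without replicate 1 of 36 hpf. csf1rb and csf1ra, receptors for macrophage colony stimulating factor, rose by 1.87 ± 0.23 and 1.65 ± 0.41, the latter not called without replicate 2 of 3 dpf. marco, a scavenger receptor, was at 2.52 and 3.70 FPKM and then at 9.57 and 11.1. mpeg1.1 (adjusted p = 0.085) and mfap4 (a change of 0.76), which define zebrafish macrophages, did not reach the thresholds. mpeg1.2, a perforin-like gene of macrophages, was at 8.76 and 18.2 FPKM and then at 8.56 and 2.94, the other direction, and was not called (adjusted p = 0.33). The calls numbered 5 without replicate 1 of 36 hpf and 0 in the fit of all 24 libraries.

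Of 22 lymphocyte genes 9 rose and 3 fell, with a median of 0.60. jak3, the kinase that signals from the common gamma chain, was at 0.990 and 0.889 FPKM and then at 17.7 and 12.8. ikzf1, an Ikaros factor of early lymphoid cells, rose from 13.2 and 9.19 FPKM to 39.6 and 48.3. rag1, of the recombinase of B and T cells, was at 0.354 and 0.524 FPKM and then at 0.283 and 0.322, and lck, a T cell kinase, was under 1 FPKM in all 4 libraries. il7r, the interleukin 7 receptor, was listed at 0 and at 0.208 FPKM and then at 2.17 and 1.36, a call lost without replicate 1 of either stage. Of 3 mast cell and eosinophil genes, cpa5 and fcer1gl rose, from 16.6 and 34.8 FPKM to 106 and 100.6 and from 23.2 and 41.0 FPKM to 275 and 241, though the call of cpa5 was lost without replicate 1 of 36 hpf, with a pseudocount of 0.1 and with all 24 libraries (adjusted p up to 0.35). Further, 4 of 9 antigen presentation genes rose, among them b2ml and mhc1zba.

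**Figure D3:**
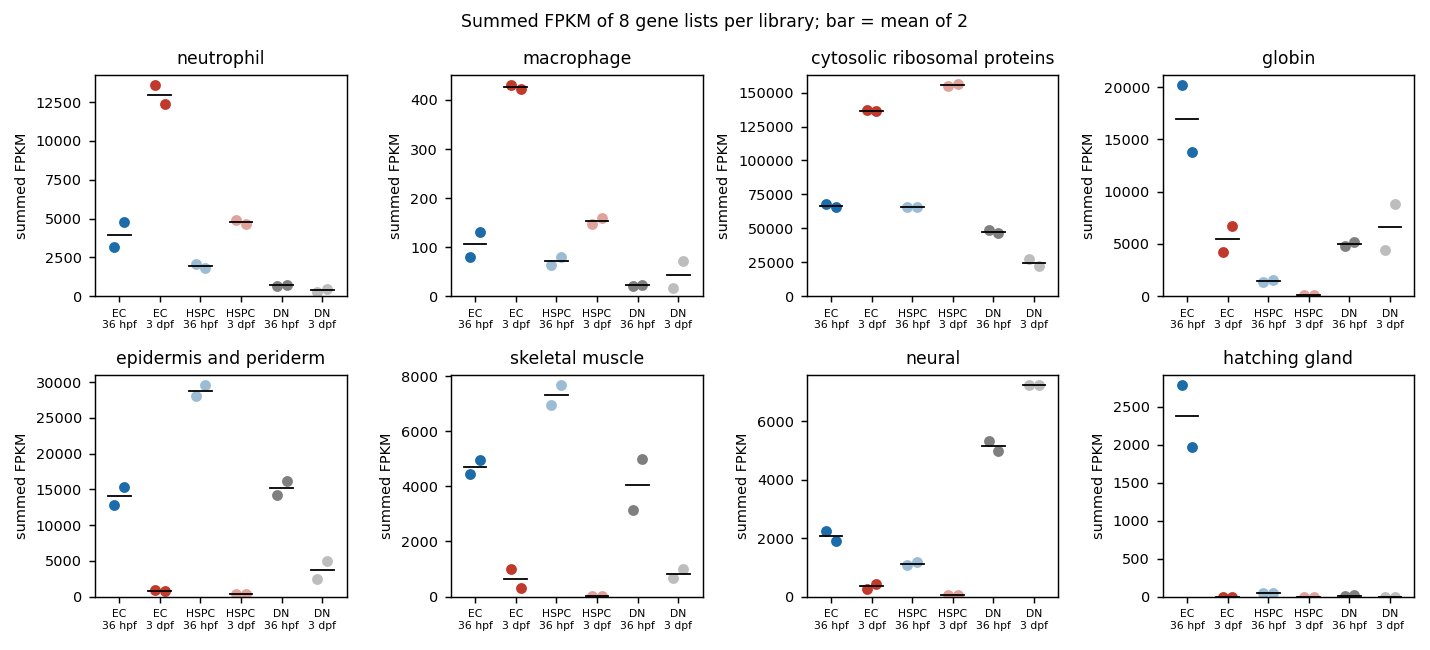
Summed FPKM (vertical axis) of 8 gene lists in the 2 libraries of each sort and stage; points are libraries and bars are means of 2. Neutrophil, macrophage and ribosomal protein sums are higher in the 3 dpf than in the 36 hpf libraries labelled EC, and the globin, epidermal, muscle, neural and hatching gland sums are lower.

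Red cell genes split. Globins fell in 5 of 9 fitted members and rose in 1, with sums of 20207 and 13779 FPKM at 36 hpf and 4258 and 6710 at 3 dpf. hbae3, an embryonic alpha globin, was at 10620 and 8134 FPKM and then at 2692 and 3644, a change of -1.57 ± 0.27. hbbe1.1 was at 3050 and 1820 FPKM and then at 925 and 1960 and was not called (adjusted p = 0.13), and hbbe2 rose from 195 and 140 FPKM to 356 and 565. Reads of neighbouring, near-identical globin copies may have been divided by the counting, so single members are uncertain. Only 2 globins were called lower without replicate 1 of 36 hpf, and 3 without replicate 1 of 3 dpf.

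Of 19 red cell membrane, iron and regulator genes 6 rose and 1 fell. tfr1b, a transferrin receptor that brings iron into red cell precursors, was at 9.30 and 12.2 FPKM and then at 61.2 and 90.1, and epor, the erythropoietin receptor, was at 8.06 and 5.07 and then at 31.5 and 27.5. rhag, a membrane channel of red cells, rose by 2.36 ± 0.52. epor rose further in HSPC libraries, as given below. gata1a, the erythroid regulator, rose from 13.6 and 6.73 FPKM to 21.0 and 46.8, a call lost without replicate 2 of either stage. Of 10 heme synthesis genes 1 rose, 1 fell and 8 were not called. The share that rose lies near the 9.16% of all genes, and the share that fell lies below their 23.6%. The member that fell was alas2, the first enzyme of the erythroid pathway, at 232 and 169 FPKM and then at 56.5 and 88.5. The member that rose was alad, by 1.03 ± 0.29. The call of alas2 was lost in each of the 4 fits that left out an EC library, and that of alad in those without replicate 2 of either stage and under both other scalings.

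Genes of tissues that are neither endothelium nor blood were high at 36 hpf and fell. Of 36 epidermis and periderm genes 35 fell, with a median of -3.41, and of 36 skeletal muscle genes 34 fell, with a median of -2.82. krt4, a surface keratin, was at 4677 and 5668 FPKM at 36 hpf and at 132 and 187 FPKM at 3 dpf, a change of -5.03 ± 0.21 (adjusted p = 9.9e-07). epcam, an epithelial adhesion gene, fell from 622 and 857 FPKM to 68.9 and 39.8. The fast muscle myosin light chain gene mylpfa fell from 397 and 448 FPKM to 49.1 and 21.5, and ckma, muscle creatine kinase, from 260 and 277 to 40.3 and 10.5.

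Summed over the epidermal list, the level was 12801 and 15384 FPKM at 36 hpf and 866 and 802 at 3 dpf, 16.9-fold lower. Muscle sums were 4439 and 4957 FPKM and then 982 and 323. At 36 hpf the HSPC libraries held more of each, 28035 and 29562 FPKM of epidermal and 6956 and 7661 of muscle genes, and the DN libraries similar amounts, 14259 and 16178 and 3148 and 4975. Both sums fell in these sorts as well. At 3 dpf the epidermal sum was 2404.1 and 5038.5 FPKM in DN and 318.9 and 341.4 in HSPC. The muscle sum was then 665.0 and 996.8 FPKM in DN and 25.1 and 26.6 in HSPC. In the libraries labelled EC, no defining marker of these lists was at 0 in both libraries of a stage. The part of such other cells in the changes of the remaining lists was not tested.

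**Figure D4:**
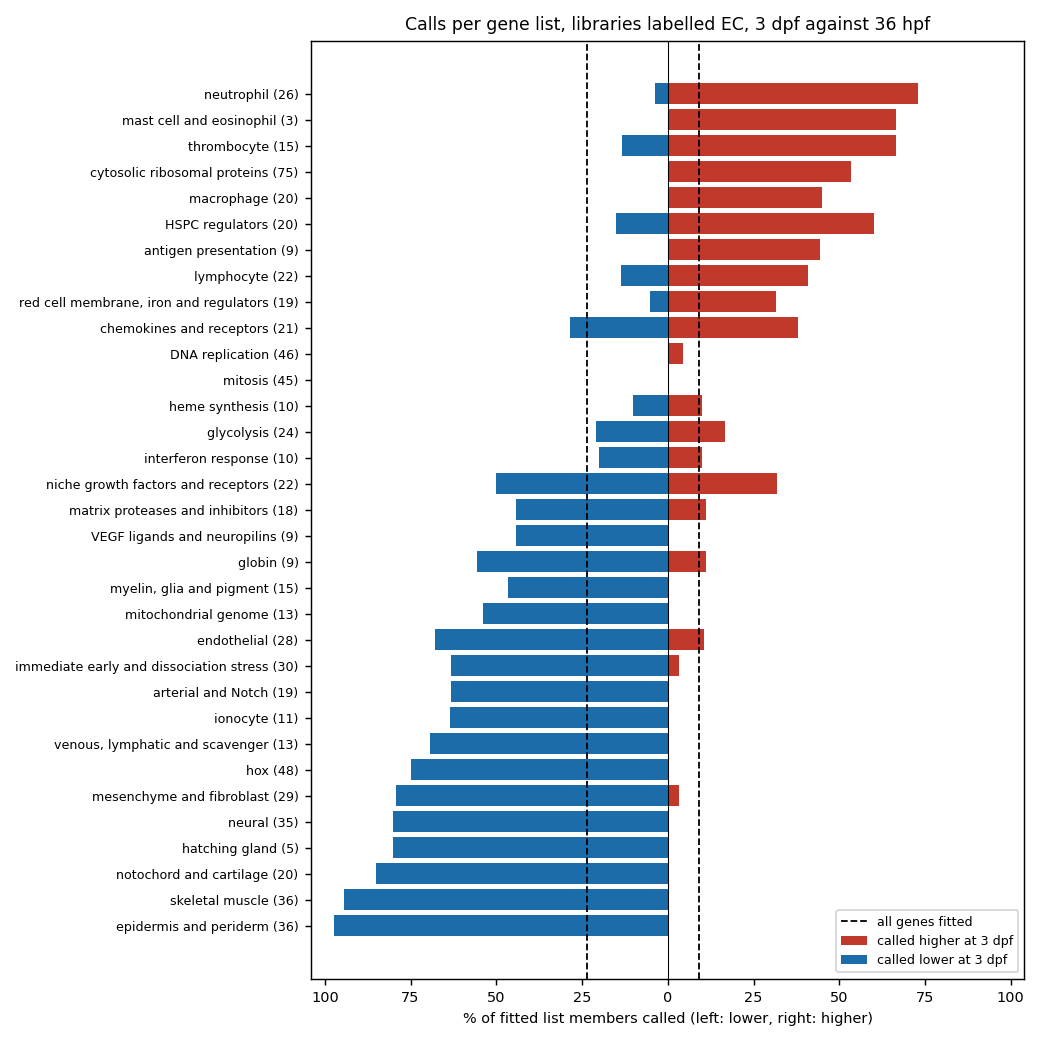
Percentage of the fitted members of each of 33 gene lists called higher (right, red) or lower (left, blue) at 3 dpf in the libraries labelled EC, with the number fitted in parentheses; dashed lines mark 9.16% and 23.6%, the shares of all genes fitted. Epidermal, muscle and notochord lists reach furthest to the left and the neutrophil list furthest to the right, while the 45 mitosis genes have no call.

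Hatching gland genes fell in 4 of 5 fitted members. This gland is a transient anterior structure whose cells release enzymes that free the embryo from its envelope. he1b was at 682 and 416 FPKM and ctslb, a cathepsin of the gland, at 241 and 195 FPKM at 36 hpf. At 3 dpf he1b was listed at 0 in both libraries and ctslb was at 0 and 0.0576 FPKM. The list summed to 2783 and 1975 FPKM in the 36 hpf libraries labelled EC, to 42.0 and 52.8 in HSPC and to 3.2 and 14.5 in DN of that stage. Both 36 hpf libraries labelled EC lay far above the other libraries of that stage. he1a and he1b are close copies between which the counting may have divided reads.

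Neural genes fell in 28 of 35 fitted members, with a median of -2.36. sox2, a factor of neural progenitors, was at 112 and 86.5 FPKM and then at 0.707 and 1.06, a change of -5.73 ± 0.23. elavl3, an RNA binding protein of young neurons, fell from 208 and 168 FPKM to 14.3 and 26.8. Mesenchyme and fibroblast genes fell in 23 of 29 members, led by tagln, of smooth muscle, from 66.4 and 82.0 FPKM to 0.594 and 0.647, and col1a2, a fibrillar collagen, from 196 and 226 to 9.04 and 9.16. The smooth muscle myosin gene myh11a was the member called higher.

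Notochord and cartilage genes fell in 17 of 20 members. col2a1a, the collagen of both tissues, was at 416 and 925 FPKM at 36 hpf and 164 and 163 at 3 dpf, and col9a3 was at 116 and 300 and then at 40.9 and 43.3, so the 36 hpf replicates differed more than the 3 dpf ones. Leaving out replicate 2 of 36 hpf gave 9 members called lower, and col9a3 was no longer among the calls. Myelin, glial and pigment genes fell in 7 of 15 members and ionocyte genes in 7 of 11, the latter in 4 without replicate 1 of 3 dpf. foxi3b, a factor that specifies ionocytes, was at 29.3 and 65.9 FPKM and then at 0.943 and 0.978.

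Hox genes, which record position along the body axis, fell in 36 of 48 fitted members and none was called higher, with a median of -2.26. hoxb1b was at 60.4 and 36.1 FPKM and then at 1.34 and 3.74, and hoxb6b at 40.3 and 30.0 and then at 0.327 and 1.97. Summed Hox levels were 1016 and 757 FPKM at 36 hpf and 138 and 276 at 3 dpf, against 666 and 762 and then 51.3 and 26.2 in HSPC and 2384 and 2246 and then 4750 and 3780 in DN libraries.

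Immediate early and dissociation stress genes, which respond within minutes to injury and to tissue dissociation, fell in 19 of 30 members and rose in 1, the heat shock gene hsp70l. atf3, a stress factor, was at 645 and 704 FPKM and then at 73.2 and 83.6, a change of -3.09 ± 0.15. cebpd, a factor of the CCAAT enhancer binding family, fell from 471 and 537 FPKM to 47.2 and 53.9, and klf4 from 32.1 and 40.4 to 1.08 and 3.86. Summed levels of the list were also lower at 3 dpf than at 36 hpf in HSPC, at 4853 and 5147 against 16504 and 16968 FPKM, and in DN libraries, at 6169 and 6617 against 10430 and 11802. RNA quality and handling time are not among the labels, and their part was not tested.

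Of 22 niche growth factors and receptors 7 rose and 11 fell. The receptor genes csf1ra, csf1rb, csf3r, epor and mpl rose, as did the ligand genes csf3b and tgfb1b. kitlga, the ligand of the Kit receptor on stem cells, was at 9.90 and 12.7 FPKM and then at 1.39 and 1.37. bmp4, a bone morphogenetic protein, fell from 12.2 and 11.3 FPKM to 0.490 and 1.296, igf2b, an insulin-like growth factor, by 3.42 on the log2 scale, and tgfb1a by 2.84. kita, the Kit receptor itself, was at 5.99 and 6.17 FPKM and then at 12.6 and 12.7, a change of 0.94 that missed the size threshold.

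Chemokine genes and their receptors rose in 8 and fell in 6 of 21 fitted members, 38.1% and 28.6%, against 9.16% and 23.6% of all genes. The share that fell lies near that of all genes. cxcr4b, the receptor that guides stem cells to the niche, was at 31.5 and 41.8 FPKM and then at 244 and 191, a rise of 2.54 ± 0.27. cxcr3.2, of macrophages, rose from 2.48 and 3.65 FPKM to 24.4 and 21.8. cxcl18b and cxcl14, both chemokine ligands, fell, the first from 277 and 358 FPKM to 32.0 and 15.8. Of the receptors and ligands, 5 were called higher without replicate 2 of 3 dpf. Interferon response genes had 1 of 10 fitted members higher, irf7, and 2 lower, irf9 and mxc. These shares lie near the 9.16% and 23.6% of all genes. Another 12 in the table were not fitted because of low values, and the call of irf7 was lost without replicate 1 of 36 hpf.

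Growth related genes differed by kind. Cytosolic ribosomal protein genes rose in 40 of 75 members and none was called lower, with a median of 1.01, close to the size threshold. rpl6 was at 1229 and 1254 FPKM and then at 3199 and 3201, a rise of 1.37 ± 0.10. Their sum was 68158 and 65362 FPKM at 36 hpf and 137152 and 136102 at 3 dpf. Scaling to a common FPKM sum or by median of ratios gave medians of 0.92 and 0.91 and 24 calls in each case, and the fit of all 24 libraries called 2.

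DNA replication genes had 2 of 46 members called higher, orc1 and dut (4.3%, against 9.16% of all genes), and a median change of 0.56. dut was listed at 0 in both 36 hpf libraries and at 4.84 and 1.505 FPKM at 3 dpf, which are only 5 and 2 reads. The sum of the list was 1561 and 1223 FPKM at 36 hpf and 1725 and 2810 at 3 dpf, so the 3 dpf replicates lay further apart than the 36 hpf ones. Leaving out replicate 1 of 3 dpf gave 16 calls, leaving out replicate 1 of 36 hpf 7, leaving out replicate 2 of 36 hpf 1 and leaving out replicate 2 of 3 dpf 0. None of 45 mitosis genes was called by limma or by limma-voom, 7 were lower and 0 higher at an unadjusted p under 0.05, and the median change was -0.22, with sums of 1289 and 1045 FPKM and then 1149 and 1007.

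The mitochondrial genome moved the other way, with 7 of 13 genes lower and a median of -1.18. mt-nd1 was at 3255 and 2699 FPKM at 36 hpf and 785 and 1730 at 3 dpf. The calls numbered 0 without replicate 1 of 3 dpf, 11 without replicate 2 of 3 dpf, 2 without replicate 1 of 36 hpf and 0 in the fit of all 24 libraries. Of 24 glycolysis genes 4 rose and 5 fell, 16.7% and 20.8%, against 9.16% and 23.6% of all genes. These counts changed without replicate 2 of 3 dpf. pkma, a pyruvate kinase, rose from 53.9 and 63.1 FPKM to 249 and 185 while pkmb was at 7.06 and 5.85 and then at 1.49 and 1.13, a call lost in each fit that left out an EC library. aldoab, an aldolase of muscle, fell from 71.5 and 65.2 FPKM to 7.53 and 5.14.

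The fit of all 24 libraries lowered most of these counts. It called lower 28 epidermal, 18 muscle, 21 neural, 8 notochord and cartilage, 16 mesenchyme, 25 Hox, 10 immediate early, 3 ionocyte, 2 globin, 6 niche and 3 chemokine genes. It called higher 4 lymphocyte, 2 red cell, 2 chemokine and 1 niche genes and no DNA replication gene.

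The change in libraries labelled EC was then set against that of the libraries labelled double negative by the difference of the changes. Of 18695 genes, 1550 changed more upward in the libraries labelled EC (8.29%) and 4377 more downward (23.4%), in all 5927 (31.7%). The median difference over all genes was -0.39 on the log2 scale, -0.55 after scaling to a common FPKM sum and -0.61 by limma-voom on recovered reads. The fit of all 24 libraries called 753 genes. Of the 6128 genes called within the EC label, 3580 were also called in this difference in the same direction.

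myb had a difference of 4.18 ± 0.35 (adjusted p = 6.1e-05), cxcr4b of 4.19 ± 0.38, ccr9a of 4.28 ± 0.71 and blf, a zinc finger gene of blood cells, of 4.31 ± 0.41. DN libraries held cxcr4b at 19.8 and 14.9 FPKM at 36 hpf and 3.71 and 6.18 at 3 dpf, a fall where the libraries labelled EC rose. tagln, at 0.960 and 0.440 FPKM and then at 1.296 and 5.42 in DN, had a difference of -6.72 ± 0.61. lyz was not called here (0.63 ± 0.38, adjusted p = 0.23), with 40.1 and 31.9 FPKM in DN at 36 hpf and 68.0 and 116 at 3 dpf.

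By list, 37 of 45 mitosis genes and 32 of 46 DNA replication genes had a higher change in the libraries labelled EC than in DN. Their medians were 1.99 and 1.58, against -0.39 over all genes. The mitosis sum fell in DN from 772 and 837 FPKM to 131 and 185 beside the levels given above in the libraries labelled EC. smc4, a condensin subunit, was at 26.0 and 28.4 FPKM in DN at 36 hpf and 3.095 and 8.45 at 3 dpf, with a difference of 2.79 ± 0.47. Of the 75 ribosomal protein genes 74 had a higher change and 1 a lower, rps8b, whose reads may be divided with its copy rps8a. Leaving out single libraries gave 27 to 36 mitosis genes and 17 to 30 replication genes, fewest without replicate 2 of DN 36 hpf (27 and 18) and of EC 36 hpf (28 and 17), and 19 replication genes without replicate 2 of EC 3 dpf and 21 without replicate 1 of DN 3 dpf. With all 24 libraries 2 mitosis, 1 replication and 7 ribosomal protein genes had a higher change, and 4 endothelial, 3 neural and 10 Hox genes a lower one.

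Endothelial genes had a lower change in 11 of 28 members and a higher in 1, neural genes in 31 of 35 and Hox genes in 34 of 48. cdh5 had a difference of -2.10 ± 0.34 and egfl7 of -3.53 from DN. The endothelial count was 4 without replicate 1 and 6 without replicate 2 of EC 36 hpf, 6 by limma-voom and 7 with a pseudocount of 0.1. Of 26 neutrophil genes 13 had a higher change, but 7 without replicate 1 of EC 36 hpf or replicate 2 of DN 36 hpf, 8 without replicate 1 of DN 3 dpf, 6 with a pseudocount of 0.1 and 4 by limma-voom. Muscle genes had 6 of 36 members with a lower change, a smaller share than the 23.4% of all genes, and this count rose without replicate 1 of EC 3 dpf.

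Set against the change in HSPC libraries, fewer genes differed. The HSPC libraries of 3 dpf, as given above, had fewer genes above 0 than those labelled EC and replicated less well. Of 18695 genes, 1059 changed more upward in the libraries labelled EC (5.66%) and 388 more downward (2.08%), in all 1447 (7.74%). This count depended on single libraries: it was 346 without replicate 1 of EC 36 hpf, 703 without replicate 2, 664 and 543 without replicate 1 or 2 of HSPC 36 hpf and 939 without replicate 1 of EC 3 dpf. The fit of all 24 libraries called 59 genes. The median difference over all genes was 0.11, and 0.44 by limma-voom. For myb the difference was 0.03 ± 0.35 (adjusted p = 0.97), smaller than its error. At 3 dpf HSPC libraries held myb at 294 and 291 FPKM.

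Muscle and epidermal genes fell further in HSPC than in the libraries labelled EC. Of 36 muscle genes 18 and of 36 epidermal genes 19 were called in this direction and none in the other, with medians of 2.45 and 2.23. Without single libraries these counts ranged from 13 to 19 and from 8 to 22, and the epidermal count was 8 without replicate 1 and 12 without replicate 2 of EC 36 hpf, and 11 and 9 without replicate 1 and 2 of HSPC 36 hpf. With all 24 libraries 0 muscle and 2 epidermal genes were called. col9a1b, a collagen of cartilage, was at 227 and 539 FPKM and then at 103 and 106 in the libraries labelled EC, and at 206 and 239 FPKM and then 0 in both HSPC libraries. foxq1a, a forkhead factor, was at 50.1 and 47.2 FPKM and then at 9.06 and 12.7, against 473 and 538 and then 0 in both HSPC libraries. The same held for the fin fold gene and3, the troponin gene tnni2a.4 and the apolipoprotein genes apoa1a and apoa1b, which were high in HSPC at 36 hpf and at or near 0 there at 3 dpf.

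Macrophage genes had a higher change than in HSPC in 6 of 20 members, and in 3 without replicate 1 of EC 36 hpf. The macrophage sum was 431 and 423 FPKM in the 3 dpf libraries labelled EC and 146 and 160 in HSPC. In HSPC of 36 hpf it was 63.6 and 80.6 FPKM, so the sum rose in HSPC too, although the median member fell there. mmp9 was at 114 and 30.9 FPKM and then 20.1 and 13.3 in HSPC, with a difference of 3.95 ± 0.89 (adjusted p = 0.025). In the other direction lay sele, an adhesion selectin of endothelium, with a difference of -3.38 ± 0.44, and stc1l, a stanniocalcin, which fell from 130 and 148 FPKM to 10.3 and 32.8 while HSPC libraries held 717 and 622 and then 1181 and 1169. Red cell membrane, iron and regulator genes lay this way in 7 of 19 members, against 2.08% of all genes. These members were fewer in each fit that left out a library. Of this list, slc4a1a had a difference of -2.91 ± 0.48 and epor of -2.41 ± 0.57. HSPC libraries held epor at 1.57 and 0.194 FPKM and then at 30.5 and 45.5. The hatching gland genes he1a and ctslb had differences of -5.74 ± 0.70 and -6.05 ± 0.61. cdh5 was also called lower, by a difference of -2.04 ± 0.34, while kdrl was not (-1.03 ± 0.35, adjusted p = 0.096).

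**Figure D5:**
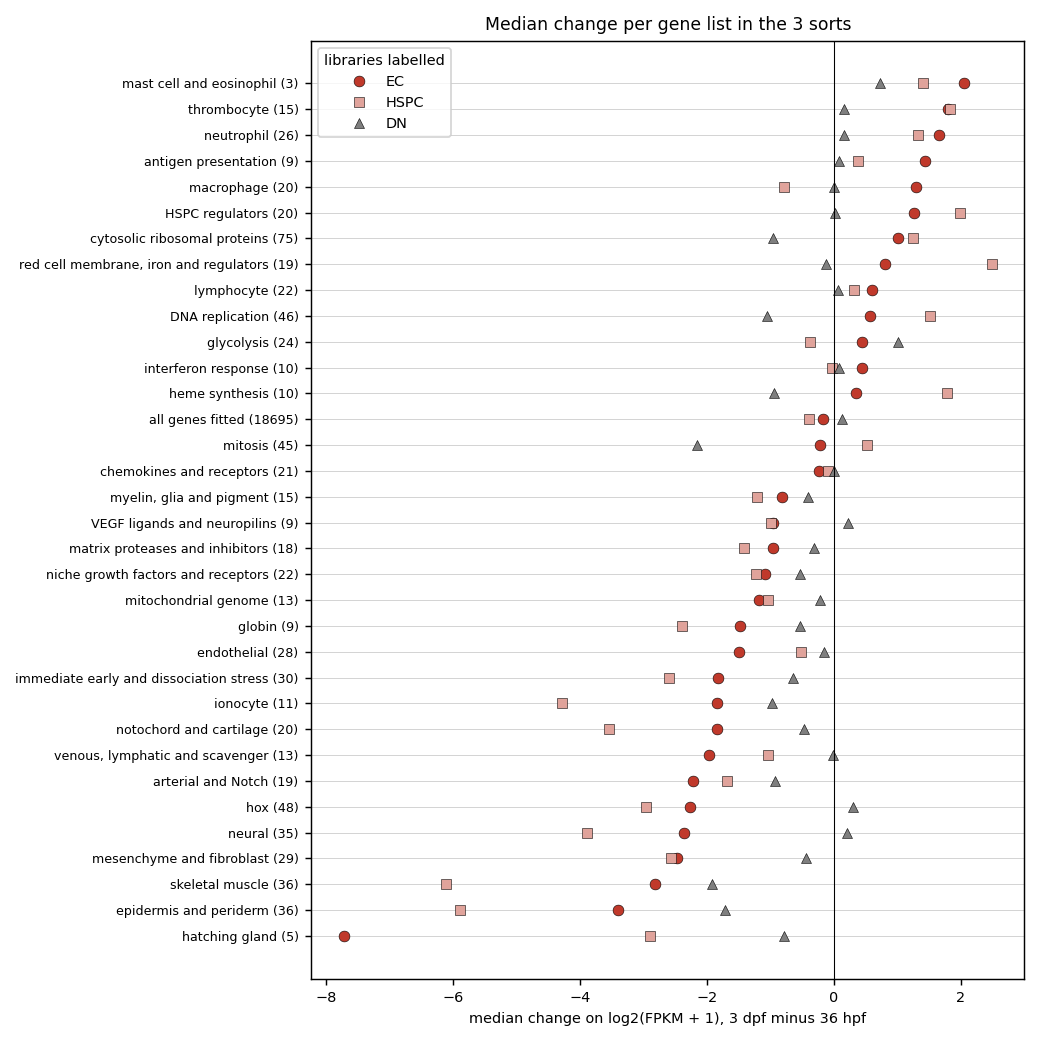
Median change from 36 hpf to 3 dpf on the log2(FPKM + 1) scale (horizontal axis) of each of 33 gene lists and of all 18695 genes, in libraries labelled EC (circles), HSPC (squares) and DN (triangles), with the number fitted in parentheses. The ribosomal protein list is at 1.01 in EC, 1.24 in HSPC and -0.96 in DN, and the macrophage list at 1.29 in EC and -0.79 in HSPC. The summed macrophage level in HSPC nevertheless rose, from 63.6 and 80.6 to 146.5 and 159.8 FPKM.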

How the data were processed

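Per the labels' protocols, sorted cells gave poly(A) RNA through RNeasy columns, and libraries came from an NEBNext Ultra kit. For every gene the authors deposited FPKM values. FastQC, HISAT, HTSeq, DESeq2 and the build GRCz10 are named per the submitters' processing notes, without versions or roles. These scale with the library's total, so a change in abundant genes moves the others. An exact 0 is called listed at 0, and a fitted change of a gene at 0 in a whole group depends on the pseudocount.

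limma 3.58.1 in R 4.3.3 took the 12 libraries of 36 hpf and 3 dpf on the log2(FPKM + 1) scale (lmFit, contrasts.fit, eBayes with a trend), with a mean per group, no other term and 6 degrees of freedom left. The filter on low values, 1 FPKM in 2 libraries or more, kept 18695 of 25067 genes. p-values are two-sided, with Benjamini-Hochberg adjustment over all genes fitted within a comparison. The 3 comparisons were EC 3 dpf minus EC 36 hpf, and the EC change minus the DN and the HSPC change. An earlier analysis of these data fitted all 24 libraries, which is an alternative here.

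The members, the 33 gene lists and the tests were chosen with earlier results of these data known. Named genes were, per direction, the 12 with the largest change among called genes that have a symbol, whose stages do not overlap and whose higher stage averages 5 FPKM or more. Up to 5 called members per list with the largest change were added (with none called, the 2 members with the highest mean), all defining members, and 6 genes per direction of each difference of changes. Members outside this rule that are named (fli1a, fli1b, lmo2, hsp70l, myh11a, itgb3a, thbs1b, kita, csf3b, tgfb1b, hbbe2, rps8b, mpeg1.2) were chosen after their values were seen. Some list members were not analysed here, and promoters were not searched.

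The fit was tested on simulated data. Reads were recovered from FPKM, since a gene's values step by the worth of 1 read: of 23718 genes above 0 in 3 or more libraries, 100% came out whole to within 0.01 reads. limma-voom was run on these reads as an alternative. No EC pair held equal values in all genes, so each library was counted once. Python 3.11.15, numpy 2.4.6, pandas 2.3.3 and matplotlib 3.10.9 were used.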

Additional observations from a re-analysis of the deposited data

Results flagged for a closer look

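Each result here is a difference between the change in libraries labelled EC and the change in another sort, called by limma. Against DN, 5927 genes differed. Upward differences on the log2(FPKM + 1) scale were 4.28 for ccr9a, 4.87 for hdac7b, 4.89 for GZMM, 4.55 for mmp13a, 4.19 for cxcr4b and 4.31 for blf. Downward differences were -8.43 for he1a, -7.73 for he1b, -6.93 for ctslb, -6.39 for slc2a1a, -6.18 for mfsd4ab and -6.72 for tagln. Against HSPC, 1447 genes differed. Upward differences were 6.90 for foxq1a, 6.56 for apoa1a, 6.35 for and3, 6.25 for apoa1b, 6.07 for col9a1b and 5.84 for tnni2a.4. Downward differences were -5.74 for he1a, -5.57 for he1b, -6.05 for ctslb, -4.14 for cox4i2, -3.65 for stc1l and -3.38 for sele. Where a group is at 0 in both libraries, as he1b is in the libraries labelled EC at 3 dpf, the fitted difference depends on the pseudocount. All groups had 2 libraries, so no single library could be set against the rest of its group.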

How the results depend on the processing

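No named gene called in EC 3 dpf minus EC 36 hpf changed sign in an alternative that fitted it. Signs were not compared in this way for other genes, for the lists or for the other comparisons. Of 189 named genes called, 108 lost no call in the alternatives of EC 3 dpf minus EC 36 hpf that fitted them, up to 13 per gene. A fit that a gene did not enter, as for kdrl and cdh5 without either 36 hpf EC library, was not counted as a loss. In the fit of all 24 libraries 76 lost the call, and for 31 that was the only loss. The 6128 calls of that comparison became 2635 with all 24 libraries, and between 5144 and 6452 under the other settings that kept all 4 libraries. Leaving out each EC library gave 4854 to 5836. For the EC change minus the DN change, 5927 calls became 3908 with a pseudocount of 0.1, 753 with all 24 libraries and 3397 with 22 libraries, and leaving out each library gave 4150 to 5377. For the EC change minus the HSPC change, 1447 calls became 2197 with a pseudocount of 0.1, 834 with only the groups compared, 59 with all 24 libraries, 2248 by limma-voom on recovered reads and 500 with 22 libraries, and leaving out each library gave 346 to 1911. The 22 libraries, without replicate 2 of EC and HSPC 4 dpf, were chosen after seeing the data. The cause of these shifts was not tested. Whether the replicate numbers pair the stages cannot be decided from 2 libraries per group, since genes are not replicates. Deviations from the group means of same-numbered EC libraries had a correlation of -0.057 across genes. Between EC and DN of 3 dpf it was -0.347, and among the other pairs of groups it lay between -0.046 and 0.055. With the replicate number as a block, 6085, 5689 and 1146 genes were called in the 3 comparisons. Low genes rest on few reads, such as 20 and 25 for kdrl at 3 dpf, and 6372 genes were too low to be fitted.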

Other observations

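Other gene groups, chosen after their values were seen, are given as values with no test of the group. Circadian clock genes stood among those that rose in the libraries labelled EC. per1b, a repressor of the clock, was at 8.09 and 9.10 FPKM at 36 hpf and 43.4 and 51.2 at 3 dpf, and in DN libraries at 23.5 and 24.6 and then at 69.5 and 102. cry5, a photolyase that repairs DNA in light, was at 0.550 and 1.53 FPKM and then at 8.27 and 7.53, and tefa, a clock output factor, at 13.9 and 18.98 and then at 69.7 and 64.5. bhlhe41, a repressor of the clock, was at 13.4 and 12.8 FPKM and then at 0.898 and 3.57. Summed over 31 clock genes, the level was 489 and 561 FPKM at 36 hpf and 1049 and 1047 at 3 dpf, and it was also higher at 3 dpf in HSPC (496 and 473, then 955 and 918) and DN (597 and 608, then 1300 and 1483). The hour of collection is not among the labels.

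Lens crystallin genes, which encode the bulk proteins of the eye lens, summed to 114 and 77.2 FPKM in the 36 hpf libraries labelled EC, although the series design names tails as the source. HSPC libraries of 36 hpf summed to 22.9 and 23.4 FPKM, DN libraries to 15.6 and 15.2, and the sum was 3.9 and 7.6 in the 3 dpf libraries labelled EC. crybb1 was at 19.98 and 14.3 FPKM and then at 0 and 0.244.

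Hox genes of paralog groups 1 to 4, which mark anterior levels, summed to 347 and 224 FPKM at 36 hpf in the libraries labelled EC and to 17.1 and 44.3 at 3 dpf. Those of groups 9 to 13, which mark posterior levels, summed to 330 and 260 FPKM and then to 102 and 192, and in DN libraries to 887 and 774 and then to 3527 and 2938.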
